A study of Mus musculus with 10 samples.

Results

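Of 57104 distal NFATC2 regions in TGF-β-treated mouse cardiac fibroblasts, 6720 shared at least 1 bp with a JUN region that carried a peak mark in the TGF-β library (11.77%, 95% exact binomial interval 11.5 to 12.04). Distal means that the authors' annotation did not place the region at a promoter, and the NFATC2 list held 68767 regions in all. These 6720 NFATC2/JUN regions were set beside the 50384 other distal NFATC2 regions. The cells were primary fibroblasts from mouse heart, and were assayed by CUT&Tag, where a transposase guided by an antibody cuts and tags chromatin for sequencing. Every library used here was labelled as treated with TGF-β. The TGF libraries had no other stated treatment, and the siHK1 libraries had first been transfected with a small interfering RNA against Hk1, which encodes the glycolytic enzyme hexokinase 1. Antibodies were against NFATC2, c-JUN, SMAD3 and histone H3 lactylated at lysine 9 (H3K9lc). There was 1 library per condition and antibody, hence no replicate error and no test between conditions, and the labels give no strain, sex, age or number of animals. The knockdown was not measured in these libraries. All intervals below cover counting error only, because PCR copies are not independent molecules and neighbouring regions are not replicates.

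NFATC2 is a transcription factor held in the cytoplasm until the phosphatase calcineurin removes its phosphates in response to calcium. It binds a short GGAAA core, on its own with modest affinity. In T cells it often pairs with AP-1, a dimer of JUN and FOS family proteins that binds TGANTCA, on composite sites in which the core stands a few bases before the AP-1 motif. AP-1 is also a main occupant of distal enhancers in fibroblasts, where it responds to growth factors and TGF-β. The comparison asks what NFATC2 regions lying on JUN regions share, and how they behaved after Hk1 knockdown.

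The sequences show what the motif counts refer to. The 4 NFATC2/JUN regions below were all that held, within their central 200 bp, a composite of GGAAA, any 3 bases and then TGANTCA. Each line gives the central 200 bp, read from GRCm38 on the plus strand, with AP-1 and GGAAA matches on either strand in capitals. The window near Dynlrb1 is chr2:155248150-155248349, the window near Fmn1 is chr2:113621692-113621891, the window near Chaserr is chr7:73595290-73595489 and the window near 4930564D02Rik is chr3:105060093-105060292.

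Dynlrb1: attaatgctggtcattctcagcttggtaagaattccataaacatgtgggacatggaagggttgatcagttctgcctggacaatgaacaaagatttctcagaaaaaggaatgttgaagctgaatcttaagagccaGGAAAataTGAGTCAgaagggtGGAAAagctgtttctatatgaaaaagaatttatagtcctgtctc

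Fmn1: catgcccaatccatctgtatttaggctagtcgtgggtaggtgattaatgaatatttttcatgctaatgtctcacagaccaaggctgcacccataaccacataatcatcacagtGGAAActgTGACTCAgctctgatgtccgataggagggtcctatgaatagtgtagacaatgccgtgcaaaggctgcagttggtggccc

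Chaserr: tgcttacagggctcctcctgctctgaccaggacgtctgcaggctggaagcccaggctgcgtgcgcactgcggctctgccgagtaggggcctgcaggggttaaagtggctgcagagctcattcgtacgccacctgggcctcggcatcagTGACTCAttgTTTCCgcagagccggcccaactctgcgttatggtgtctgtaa

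4930564D02Rik: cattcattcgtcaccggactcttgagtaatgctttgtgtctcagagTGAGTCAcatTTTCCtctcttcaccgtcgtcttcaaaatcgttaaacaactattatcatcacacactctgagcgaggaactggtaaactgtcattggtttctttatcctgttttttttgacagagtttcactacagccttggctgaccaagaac

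The region near Dynlrb1 had 11 NFATC2 reads in the TGF library and 12 in the siHK1 library. The region in an intron assigned to Fmn1 had 5 and 9, the intergenic region near Chaserr 11 and 2, and the intergenic region near 4930564D02Rik 1 and 2. JUN reads in the overlapping JUN regions were 185 and 92 for Dynlrb1, 255 and 174 for Fmn1, 185 and 90 for Chaserr and 266 and 123 for 4930564D02Rik. JUN reads exceeded NFATC2 reads at all 4, as they did in the totals over listed regions.

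Of 4823 single-copy NFATC2/JUN regions, 41.7% had neither motif in the central 200 bp, 37.6% had GGAAA only, 10.6% had AP-1 only and 10.0% had both. Shown next, as examples with many reads, are the 2 regions with most NFATC2 reads that had an AP-1 match and no GGAAA in the central 200 bp (introns assigned to Zfp648, chr1:154065727-154065926, and Trpm6, chr19:18890284-18890483) and the 2 that had GGAAA and no AP-1 match (intergenic, assigned to 1700034K08Rik, chr9:93175765-93175964, and Malat1, chr19:5810817-5811016), among single-copy regions, defined below, that share no 31-base stretch with the mitochondrial genome and were not called in all 8 libraries.

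Zfp648: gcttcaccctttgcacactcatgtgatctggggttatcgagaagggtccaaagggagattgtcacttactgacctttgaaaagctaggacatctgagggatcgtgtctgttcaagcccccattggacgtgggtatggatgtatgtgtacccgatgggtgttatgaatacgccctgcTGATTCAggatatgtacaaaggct

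Trpm6: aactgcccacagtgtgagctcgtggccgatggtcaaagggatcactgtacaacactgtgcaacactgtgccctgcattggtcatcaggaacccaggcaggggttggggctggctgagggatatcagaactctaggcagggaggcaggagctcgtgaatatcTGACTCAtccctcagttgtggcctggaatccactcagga

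1700034K08Rik: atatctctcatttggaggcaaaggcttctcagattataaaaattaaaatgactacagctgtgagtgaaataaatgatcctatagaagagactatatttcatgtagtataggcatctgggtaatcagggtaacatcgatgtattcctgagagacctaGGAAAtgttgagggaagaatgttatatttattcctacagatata

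Malat1: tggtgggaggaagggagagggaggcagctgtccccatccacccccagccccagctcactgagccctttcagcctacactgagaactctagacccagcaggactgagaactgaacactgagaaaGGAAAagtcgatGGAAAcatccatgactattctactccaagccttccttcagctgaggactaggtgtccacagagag

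NFATC2 reads were 30 in TGF and 16 in siHK1 for the Zfp648 region, and 31 and 14 for the Trpm6 region. They were 74 and 37 for the 1700034K08Rik region and 38 and 25 for the region near Malat1, a nuclear long noncoding RNA. JUN reads were 835 and 495 at Zfp648, 457 and 315 at Trpm6, 34 and 19 at 1700034K08Rik and 468 and 283 at Malat1. Among these 4, the region with the most NFATC2 reads had the fewest JUN reads.

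NFATC2 reads were spread unevenly over the NFATC2/JUN regions, and the top 4 held 28.8% of their reads in TGF. The NFATC2/JUN regions held 317607 TGF reads and 187251 siHK1 reads, which was 55.2% and 52.8% of all reads in listed NFATC2 regions. The highest was chr2:98666240-98667313, annotated to Lrrc4c at a distance of over 1 Mb, where 30491 TGF reads and 17975 siHK1 reads fell. The next 3 lay at chr1:24613323-24614841, chr1:24614842-24616136 and chr1:24611631-24612676 near Col19a1, with 23795, 21153 and 15931 reads in TGF and 15579, 14265 and 10922 in siHK1. All stretches of 31 bases in those 3 regions also occur in the mitochondrial genome (100%). Regions at chr9:3023421-3024659 and chr9:3000003-3001532, assigned to Mir101c, had 8096 and 7469 reads in TGF and 4104 and 3567 in siHK1, and their 31-base stretches occurred a median of 33 and 34 times in the genome. These 6 regions were called with all 4 antibodies in both libraries. In all, 331 NFATC2/JUN regions were called in all 8 libraries, which the rule itself does not allow for other distal regions, since they lack a JUN peak in TGF. The 331 held 77.3% of the reads of the NFATC2/JUN regions in TGF and 76.7% in siHK1. Since such regions can collect reads whatever the antibody, values are also given for single-copy regions, in which at least 90% of 31-base stretches occur once in the assembled genome. There were 4823 single-copy NFATC2/JUN regions (71.8%), 26 of them called in all 8 libraries, and 36171 single-copy other distal regions (also 71.8%). The 1897 multi-copy NFATC2/JUN regions held 88.4% of the reads in TGF and 87.1% in siHK1. Of single-copy NFATC2/JUN regions not called in all 8 libraries, an intergenic one assigned to Ric8b (chr10:85025968-85026659) had most reads, 286 in TGF and 159 in siHK1, and 6.19% of its 31-base stretches also occur in the mitochondrial genome. Those at Pth2r (120 and 75), Vmn1r2 (118 and 67), Dnajc27 (122 and 62), Epha5 (126 and 57) and Tyrp1 (106 and 64) followed. Their shares of such mitochondrial stretches were 0.241% at Pth2r, 0.664% at Dnajc27, 0.396% at Epha5, 0.585% at Tyrp1 and 0% at Vmn1r2. Of all 4823 single-copy NFATC2/JUN regions, 9 had any such stretch.

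The AP-1 motif TGANTCA was more frequent in NFATC2/JUN regions than 5 kb away from them, and in other distal NFATC2 regions it was not. Of 4823 single-copy NFATC2/JUN regions, 996 had a match in the central 200 bp (20.7%, interval 19.5 to 21.8), against 2168 of 36171 other distal regions (5.99%, 5.75 to 6.24). In windows of the same length 5 kb to either side, the shares were 5.71% and 5.99%. Over all copies, the shares were 16.5% (15.6 to 17.4) in NFATC2/JUN regions and 5.58% (5.38 to 5.79) in other distal regions. NFATC2 regions at promoters stood at 5.57%, close to the other distal regions. The rule did not use sequence, but it did use JUN peaks, and AP-1 is the motif that JUN binds.

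The NFAT core GGAAA was not more frequent in NFATC2/JUN regions than around them. It was found in 2298 single-copy NFATC2/JUN regions (47.6%, 46.2 to 49.1) and in 47.2% of windows 5 kb away (46.2 to 48.2). Other distal NFATC2 regions had it in 46.2% (45.7 to 46.7) and their outer windows in 49.4% (49.1 to 49.8). The longer form TGGAAA, which contains the core, gave 17.3% (16.2 to 18.4) in NFATC2/JUN regions, 17.8% 5 kb away and 17.9% in other distal regions. Over all copies, the core was in 38.9% of NFATC2/JUN regions (37.8 to 40.1) and 43.7% of other distal regions (43.2 to 44.1). Taken as a whole, neither set of NFATC2 regions thus carried more GGAAA letters than its surroundings. The windows were not matched for GC content, and shares within quintiles of reads and of GC content are given below. A missing match says only that these letters were absent from the window.

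Matches to TEAD, SMAD and RUNX motifs were moderately more frequent in NFATC2/JUN regions, and matches to the interferon-stimulated response element were not. TEAD factors, the DNA-binding partners of the mechanosensitive coactivator YAP, have the motif GGAATG, found in 15.2% of single-copy NFATC2/JUN regions (14.2 to 16.2), 10.8% of other distal regions and 10.8% of windows 5 kb from the NFATC2/JUN regions. CAGAC, a short motif of SMAD proteins, was in 46.4% (44.9 to 47.8), against 38.4% in other distal regions and 37.9% 5 kb away. TGTGGT, bound by RUNX factors, was in 18.1% (17.0 to 19.2), against 16.3% and 15%. The cyclic AMP response element (CRE), TGA and TCA joined by CG, was rare, at 0.311% (0.174 to 0.512) against 0.127% (0.0931 to 0.17) in other distal regions. Matches to the interferon-stimulated response element were in 2.09% (1.71 to 2.54) and 2.33% (2.18 to 2.49), and in 2.7% of windows 5 kb from the NFATC2/JUN regions.

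**Figure D1:**
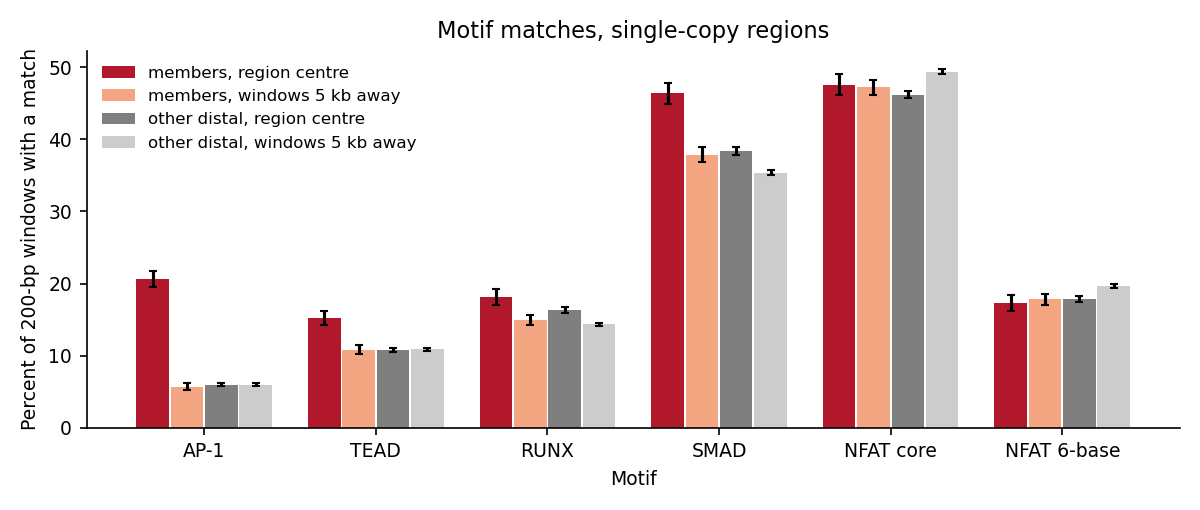
Percent of 200-bp windows of single-copy regions with at least 1 match to each motif on either strand, in region centres and in windows 5 kb to either side. Error bars are exact 95% binomial intervals. AP-1 stands at 20.7% in NFATC2/JUN region centres (members) and near 6% in the other 3 bars, while the NFAT core lies between 46.2% and 49.4% everywhere.

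The composite gap of 3 bases did not stand out from other gaps between the 2 motifs. Among the 996 single-copy NFATC2/JUN regions with an AP-1 match, 48.5% also held GGAAA, and among those without one 47.4% did. With GGAAA before TGANTCA on 1 strand, each gap of 0 to 30 bases was found in 1 to 8 regions (median 3), and the composite gap of 3 bases in 4. The gap with 8 was 0 bases (0.803% of the 996), against 1 of 2168 other distal regions with an AP-1 match (0.0461%). It was picked as the highest count, and the difference was not tested. With the core after the AP-1 motif, each gap was found in 1 to 10 regions (median 4). The composite was in 0.0829% of single-copy NFATC2/JUN regions (0.0226 to 0.212) and in 4 of 36171 other distal regions (0.0111%, 0.00301 to 0.0283). These counts are too small to set the composite gap apart from its neighbours.

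AP-1 matches were dense across the middle of NFATC2/JUN regions, with a shallow dip at the midpoint. Their density was 1.58 per kb at 125 bp before and 1.54 per kb at 125 bp after the midpoint, and 1.17 and 1.3 per kb in the 50-bp bins on either side of it. In other distal regions it stayed between 0.294 and 0.341 per kb in every bin. Centred on the JUN midpoint of the same loci, AP-1 density was 1.84 per kb in both middle bins and 0.34 to 0.413 per kb at the outer bins. GGAAA density was not highest at NFATC2 midpoints and ran from 3.03 to 3.66 per kb in NFATC2/JUN regions. In other distal regions it was 3.31 and 3.33 per kb in the middle bins. It dipped there to 2.82 at 125 bp before and 2.94 at 125 bp after the midpoint, and reached 3.51 at 425 bp after it. In NFATC2/JUN regions the values were 3.35 and 3.29 in the middle bins and 3.03 and 3.18 at 125 bp.

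**Figure D2:**
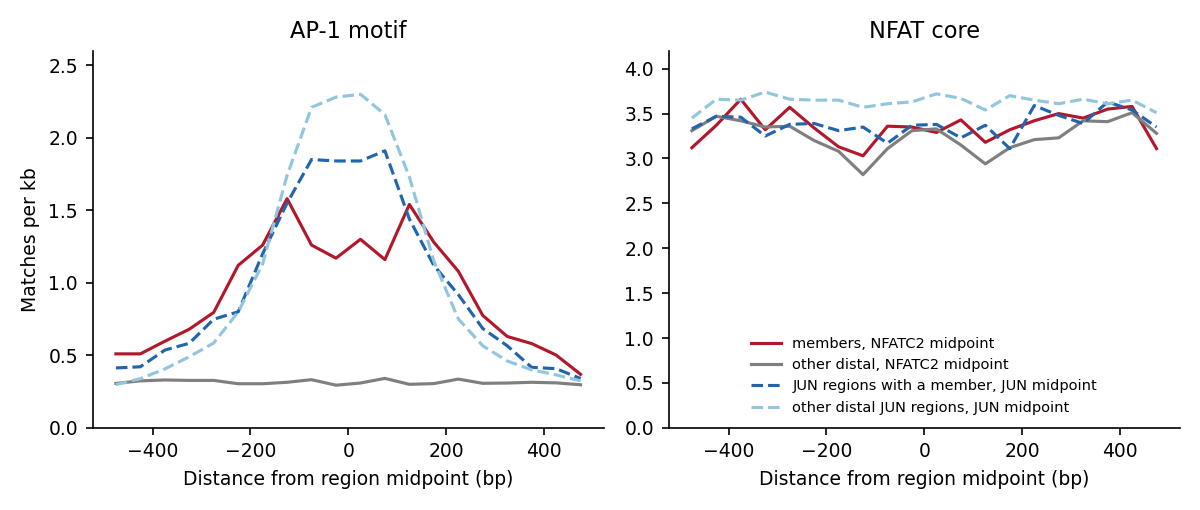
Density of AP-1 matches (left) and GGAAA matches (right) per kb, in 50-bp bins by distance from the midpoint of NFATC2 regions (solid) or JUN regions (dashed), for single-copy NFATC2/JUN regions (members), other distal NFATC2 regions, JUN regions with a member and other distal JUN regions. AP-1 peaks at JUN midpoints and has a shallow dip at NFATC2 midpoints. GGAAA is not highest at either midpoint. In other distal regions it rises at the NFATC2 midpoint between dips at 125 bp to either side.

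In their central 200 bp, JUN regions that held an NFATC2 region were not richer in AP-1 motifs than other JUN regions. Of 47578 distal JUN regions called in the TGF library, 6563 held an NFATC2/JUN region (13.8%), and 4701 held a single-copy one. In the central 200 bp of these 4701 JUN regions AP-1 was found in 31.1% (29.8 to 32.4), against 36.7% (36.3 to 37.2) of the 41015 distal JUN regions with none. The core GGAAA was in 46.8% (45.3 to 48.2) and 50.7% (50.2 to 51.1), and the composite in 7 of 4701 (0.149%, 0.0599 to 0.307) and 122 of 41015 (0.297%, 0.247 to 0.355). TEAD matches were in 16.7% (15.7 to 17.8) and 16.1% (15.7 to 16.5), SMAD matches in 47.3% (45.9 to 48.8) and 46.7% (46.2 to 47.2), and RUNX matches in 18.5% (17.4 to 19.7) and 17.7% (17.4 to 18.1), each with overlapping intervals. GC content moved with these shares, with a median of 50% in the first set and 47% in the second, and its part was not tested. The AP-1 difference was present in each quintile (5 groups of equal size) of JUN reads in the TGF library, from 10.8% against 23.2% in the lowest quintile to 38.9% against 47.7% in the highest. JUN regions without NFATC2 were not filtered for copies. The 4701 regions were also wider, with a median of 656 bp against 439 bp, so the window covered a smaller part of them. In the bin at 25 bp before the JUN midpoint AP-1 density was 1.84 per kb against 2.28. At 275 bp before it the order was opposite, at 0.749 against 0.585 per kb. The part of width was not tested.

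NFATC2/JUN loci were more frequent among JUN regions with many reads. The share of distal JUN regions that held an NFATC2/JUN region was 9.28% (8.7 to 9.88) in the lowest quintile of JUN reads, 8.94%, 9.93% and 13.0% in the next ones, and 27.8% (26.9 to 28.8) in the highest. JUN regions with an NFATC2/JUN region had median JUN reads of 65 (TGF) and 34 (siHK1), at a median width of 615 bp. Those without had 35 and 17 reads and 439 bp. Per kb, this was 188 and 107 reads against 111 and 56.7. Wider regions have more room for an overlap, and the part of width was not tested. Most JUN regions that held any NFATC2/JUN region held 1 (6496 of 6624), 128 held 2 or 3, and 53.0% of NFATC2/JUN regions lay wholly inside their JUN region.

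They were also more frequent among NFATC2 regions with many reads. Among single-copy distal NFATC2 regions, the share that lay on a called JUN region was 2.52% (2.2 to 2.89) in the lowest quintile of NFATC2 reads, then 3.95%, 6.33% and 11.1%, and 34.9% (33.9 to 36) in the highest. By width, the shares were 7.06% (6.52 to 7.64) in the narrowest quintile and 20.4% (19.6 to 21.3) in the widest. By GC content, they were 2.93% (2.57 to 3.32) in the lowest quintile and 23.9% (23.0 to 24.9) in the highest. The AP-1 contrast was present at each NFATC2 level. In the lowest quintile of reads it was 16.4% against 6.54%, and in the highest 23.3% against 4.74%. It was also present in each quintile of GC content, from 17.1% against 6.33% in the lowest to 19.6% against 4.25% in the highest. In the highest quintile of reads, GGAAA was in 44.8% of NFATC2/JUN regions and 34.8% of other distal regions, in the lowest in 47.8% and 50.3%. In the quintiles between, from low to high, it was in 54.9% against 49.4%, 51.1% against 47.4% and 52.0% against 45.1%. By GC content, GGAAA was in 43.3% against 47.1% in the lowest quintile and 46.9% against 47.6% in the next. In the higher ones it was in 51.5% against 48.2%, 51.0% against 46.8% and 44.6% against 40.1%.

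**Figure D3:**
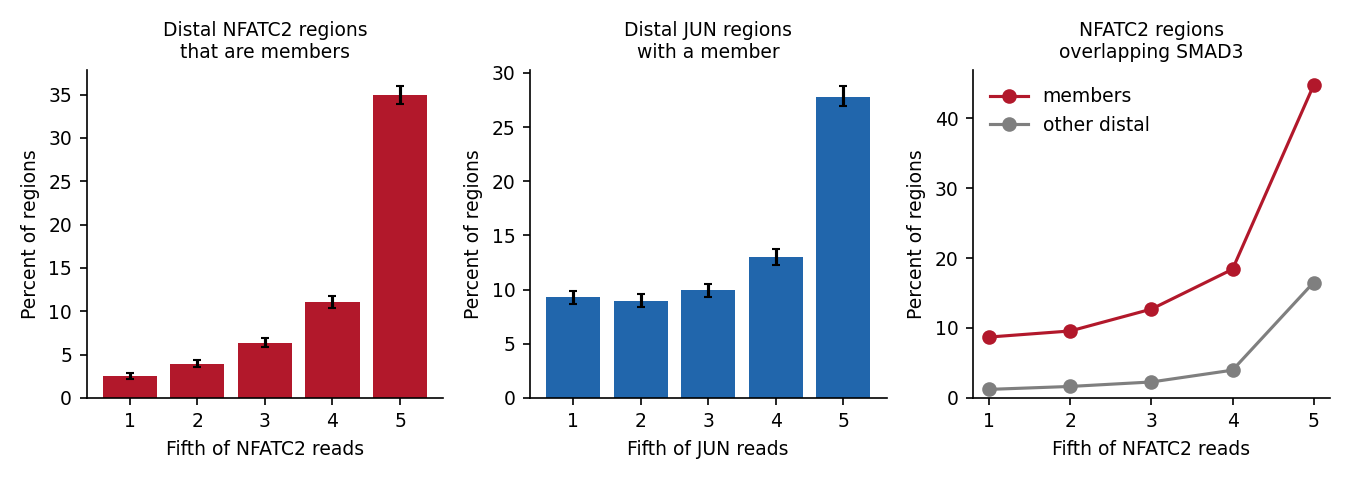
Percent of single-copy distal NFATC2 regions that are NFATC2/JUN regions, by the quintile of scaled NFATC2 reads (left), percent of distal JUN regions that hold one, by the quintile of JUN reads in the TGF library (middle), and percent of NFATC2 regions that overlap a SMAD3 region (right, members against other distal). Error bars are exact 95% binomial intervals. All 3 measures are highest in the quintile with most reads, at 34.9%, 27.8% and, for members, 44.7%.

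Read numbers per region were small. Single-copy NFATC2/JUN regions had a median of 5 reads in TGF (quartiles 3 and 9) and 4 in siHK1 (quartiles 2 and 6), and other distal regions a median of 2 in each. Per kb, NFATC2/JUN regions had 22.9 reads in TGF and 15.1 in siHK1, against 10.8 and 7.71 in other distal regions. At least 10 reads were found in 21.9% of single-copy NFATC2/JUN regions in TGF and 8.54% in siHK1. Median width was 284 bp against 242 bp, and median GC content 49.5% against 44%.

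**Figure D4:**
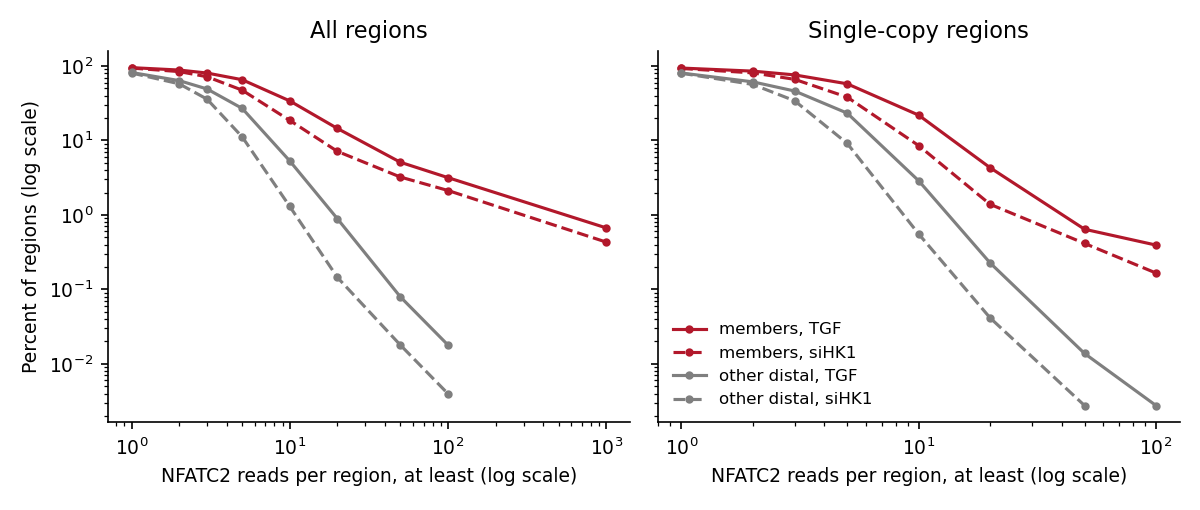
Percent of NFATC2 regions (log scale) with at least the number of reads on the x axis (log scale), for NFATC2/JUN regions (members) and other distal regions in the TGF (solid) and siHK1 (dashed) libraries, over all regions and single-copy regions. In the left panel 0.67% of members reach 1000 reads in TGF, and among single-copy members 0.394% reach 100.

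NFATC2 peaks were called in both libraries more often at NFATC2/JUN regions. This held for 1064 of 6720 (15.8%, 15 to 16.7) against 748 other distal regions (1.48%, 1.38 to 1.59), with 3.61% over all listed NFATC2 regions. Among single-copy regions, it was 366 (7.59%, 6.86 to 8.37) against 332 (0.918%, 0.822 to 1.02), and without the regions called in all 8 libraries 11.5% of NFATC2/JUN regions. The shares also differed with read number. In the highest quintile of NFATC2 reads 12.5% of single-copy NFATC2/JUN regions and 5.4% of other distal regions were called in both, and in the lowest quintile none of either. The remaining single-copy NFATC2/JUN regions were split evenly, with 2222 called in TGF only (46.1%) and 2213 in siHK1 only (45.9%). Other distal regions were called in siHK1 only more often, at 58.3% against 40.6% in TGF only. Regions called in TGF only had a median of 7 reads in TGF and 2 in siHK1, and those called in siHK1 only 3 and 4.

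**Figure D5:**
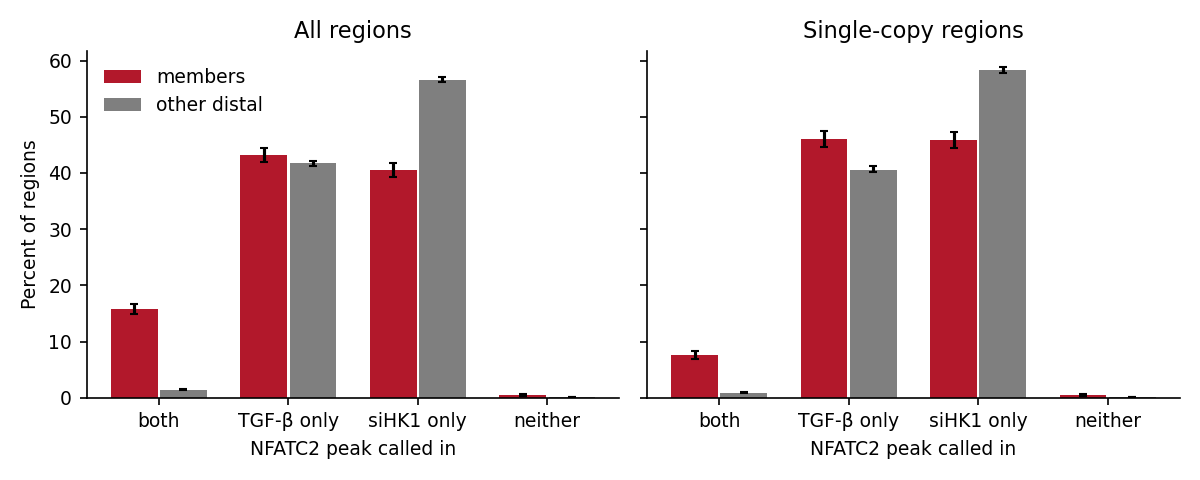
Percent of NFATC2/JUN regions (members) and other distal NFATC2 regions with an NFATC2 peak called in both libraries, in the TGF-β library only, in the siHK1 library only or in neither, over all regions and single-copy regions. Error bars are exact 95% binomial intervals. Members called in both are 15.8% over all regions and 7.59% among single-copy regions.

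NFATC2 read sums at these regions differed little between the siHK1 and TGF libraries once totals were made equal. Reads in listed NFATC2 regions were 575706 in TGF and 354599 in siHK1, and libraries were scaled to equal totals. The log2 ratio of summed reads, siHK1 over TGF, was -0.06 over all NFATC2/JUN regions (interval -0.07 to -0.05) and 0.10 over other distal regions (0.09 to 0.11). In single-copy regions it was 0.10 (0.07 to 0.12) and 0.21 (0.20 to 0.23), so that the sign at NFATC2/JUN regions depended on the multi-copy regions, which stood at -0.09. It also turned to 0.0194 when libraries were scaled over regions called in both. With equal totals a change common to all regions cannot be seen. All NFATC2/JUN regions together held 55.2% (TGF) and 52.8% (siHK1) of those totals, so the scaling limits how far their own ratio can move.

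Shares of single regions with large ratios were somewhat below those of the whole list. Of 3425 NFATC2/JUN regions with at least 10 scaled reads over both libraries, 355 were at least 2-fold lower in siHK1 (10.4%, 9.36 to 11.4), against 14.4% of all NFATC2 regions with that many reads, and 507 were at least 2-fold higher (14.8%, 13.6 to 16), against 17.5%. Other distal regions were at 19.6% and 19%. Among 1958 single-copy NFATC2/JUN regions, 393 were at least 2-fold higher (20.1%) and 183 at least 2-fold lower (9.35%), against 21.0% and 12.3% of all single-copy NFATC2 regions. Which direction had more regions depended on the settings, with 117 lower and 72 higher among those with at least 20 scaled reads, and 1501 lower and 163 higher with no scaling. The median log2 ratio over the 3425 regions was -0.01 (quartiles -0.57 and 0.70). At these read numbers ratios of this size also come from counting error.

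The largest single falls were in regions with no reads in siHK1. An intronic region of Cyth3, which encodes an exchange factor for ARF GTPases, at chr5:143669103-143669958 had 21 TGF reads and 0 siHK1 reads. The counting interval of its log2 ratio lay below -1.68. Its JUN reads were 116 and 69. An intronic region of Anxa3 (chr5:96801891-96802472) and an intergenic one near Fa2h (chr8:111435227-111435779) each had 14 and 0, with intervals below -1.03. Multi-copy intronic regions of Cndp1, Cep162 and Abhd6 had 16, 16 and 15 TGF reads and 0 siHK1 reads.

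The largest rises were the reverse. An intronic region of Vcl, which encodes the focal adhesion protein vinculin, at chr14:20974001-20974341 and an intergenic region near 4930430F21Rik (chr15:31070244-31070566) each had 0 reads in TGF and 11 in siHK1, with intervals of the log2 ratio above 2.03. An intronic region of Ddhd1 had 0 and 9, with an interval above 1.68. Regions assigned to Adra1b, Utp6, 1700019C18Rik, Sp1, Setbp1, Olfr902 and Rab6b tied at 0 and 8. JUN reads at Vcl were 18 and 9 and at 4930430F21Rik 222 and 105, close to the ratio of the JUN totals. None of these changes was carried by more than 21 reads.

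JUN itself, which chose the regions in its TGF library, was nearly level between libraries at these loci. JUN reads at the 6563 distal JUN regions with an NFATC2/JUN region were 827009 in TGF and 467806 in siHK1, a log2 ratio of 0.07 (0.06 to 0.08) at equal totals. At JUN regions with a single-copy one it was -0.00267 (-0.00896 to 0.00361). The 41015 other distal JUN regions, chosen on the same library, stood at -0.07 (-0.08 to -0.07). As a median over single regions, the value at NFATC2/JUN loci was -0.0648. Of the first set 460 of 6398 with at least 10 scaled reads were at least 2-fold lower (7.19%), against 12.1% of the others and 9.49% of all JUN regions, and 58 were at least 2-fold higher (0.907%), against 1.46% and 6.48%. The list of all JUN regions includes those called in siHK1 only, so its shares differ from the others by the way regions were chosen. The share with a JUN peak also called in siHK1 was 70.0% (68.9 to 71.1) against 54.4% (53.9 to 54.9), in regions that also had more JUN reads.

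NFATC2 and JUN ratios did not rise together. Over the 1958 single-copy NFATC2/JUN regions with at least 10 scaled NFATC2 reads, Spearman's correlation of the 2 log2 ratios was -0.15. The regions share libraries and depth, so it is given as a description. In the quintile of single-copy regions with the lowest JUN ratios (median log2 -0.79), the NFATC2 ratio of summed reads was 0.29 (0.23 to 0.35). In the quintile with the highest (median 0.47), it was -0.03 (-0.09 to 0.02). Levels were weakly related, with a correlation of 0.28 between NFATC2 and JUN reads in TGF and 0.21 in siHK1 over 4823 single-copy regions. Over all 6720 NFATC2/JUN regions these were 0.07 and 0.07, and the correlation of the log2 ratios was -0.06 over 3425 regions. NFATC2 sums also did not differ by motif. The log2 ratio was 0.10 (0.05 to 0.15) in the 996 regions with AP-1 and 0.10 (0.07 to 0.12) in the 3827 without.

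SMAD3, the factor that carries TGF-β signals to DNA, lay on many of the same regions. A listed SMAD3 region overlapped 2864 NFATC2/JUN regions (42.6%, 41.4 to 43.8) and 6.31% of other distal regions (6.1 to 6.53). Among single-copy regions it was 1564 (32.4%, 31.1 to 33.8) against 4.34% (4.13 to 4.56). The contrast was present at each NFATC2 level, from 8.7% against 1.21% in the lowest quintile of reads to 44.7% against 16.5% in the highest. SMAD3 peaks called in siHK1 overlapped 26.4% of single-copy NFATC2/JUN regions (25.2 to 27.7) and those called in TGF 12.2% (11.3 to 13.1). In other distal regions the order was opposite, at 1.88% and 2.9%.

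SMAD3 reads followed the same order. The 1563 SMAD3 regions on single-copy NFATC2/JUN regions had 17668 reads in TGF and 19593 in siHK1, with medians of 7 and 10, a log2 ratio of 0.64 (0.61 to 0.67) at equal SMAD3 totals. The 1566 on other single-copy distal NFATC2 regions had 14927 and 8366, a log2 ratio of -0.34 (-0.38 to -0.30). This was not particular to NFATC2, since 4700 SMAD3 regions on distal JUN regions, with no NFATC2 region, had a log2 ratio of 0.91 (0.89 to 0.94). Distal SMAD3 regions with neither JUN nor NFATC2 stood at -0.34. The sets with no NFATC2 region were not filtered for copies.

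H3K9lc overlapped fewer of the regions. A listed H3K9lc region overlapped 1417 NFATC2/JUN regions (21.1%, 20.1 to 22.1) and 5.7% of other distal regions (5.5 to 5.91), but among single-copy regions only 368 (7.63%, 6.9 to 8.42) and 2.34% (2.19 to 2.51). The 368 had median NFATC2 reads of 10 (TGF) and 6 (siHK1), and the other 4455 had 5 and 3. Their NFATC2 log2 ratio of summed reads was -0.01 (-0.06 to 0.04), against 0.13 (0.10 to 0.15) in regions without H3K9lc. H3K9lc reads on them were 19808 in TGF and 10769 in siHK1, a log2 ratio of -0.07 (-0.10 to -0.03). The H3K9lc ratio was 0.04 (0.01 to 0.07) on other distal NFATC2 regions. It was -0.14 (-0.16 to -0.12) on distal JUN regions with no NFATC2 region, and -0.07 (-0.08 to -0.07) in distal H3K9lc regions with neither JUN nor NFATC2. Those last sets, with no NFATC2 region, were not filtered for copies.

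By position, 3238 NFATC2/JUN regions were intronic (48.2%), 2991 distal intergenic (44.5%), 324 exonic and 138 in annotated 3′ UTRs. They lay nearer to genes than other distal regions, with a median distance to a start site of 20.9 kb against 37.7 kb, and 25% against 43.5% lay beyond 50 kb. By chromosome, they were between 8.97% and 14.4% of distal NFATC2 regions on autosomes and 4.08% on X.

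Gene lists were described by how many of their genes had a single-copy NFATC2/JUN region. Of 12031 genes with a single-copy distal NFATC2 region assigned to them, 3350 had an NFATC2/JUN region (27.8%). Fibroblast markers had one at 7 of 9 genes (exact interval 40.0 to 97.2%), integrins and adhesion genes at 13 of 17 (50.1 to 93.2%), cardiac fibroblast transcription factors at 20 of 28 (51.3 to 86.8%), and fibrillar collagens with their cross-linking enzymes at 9 of 14 (35.1 to 87.2%). NFAT and calcineurin pathway genes had one at 12 of 20 (36.1 to 80.9%), TGF-β pathway genes at 15 of 25 (38.7 to 78.9%) and contractile myofibroblast genes at 9 of 15 (32.3 to 83.7%). Matricellular genes had one at 11 of 19 (33.5 to 79.7%), Hippo pathway genes and YAP targets at 8 of 14 (28.9 to 82.3%), cytokines and growth factors at 12 of 22 (32.2 to 75.6%) and proteases with their inhibitors at 8 of 16 (24.7 to 75.3%). AP-1 subunit genes had one at 4 of 11 (10.9 to 69.2%) and endothelial markers at 6 of 10 (26.2 to 87.8%). T cell markers and NFAT targets of T cells had one at 1 of 9 (0.281 to 48.2%), and cardiomyocyte markers at 0 of 7 (0 to 41.0%). The intervals of the AP-1, endothelial, T cell, cardiomyocyte and protease lists contained the share of all genes, and those of the other 10 lists lay above it. The number of distal regions per gene differs with gene length, whose part was not tested.

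The regions assigned to these genes need not lie near them, and most single-copy ones had few reads. At Thy1, a surface marker of fibroblasts, the intergenic region at chr9:43982344-43982918, at -60466 bp from the start site, had 29 NFATC2 reads in TGF and 24 in siHK1. At Col1a1, which encodes the main chain of type I collagen, chr11:94927728-94928114 had 16 and 9 NFATC2 reads and 590 and 278 JUN reads. At Lif, a cytokine of the interleukin-6 family, chr11:4294517-4295299 had 29 and 13. All 3 regions had more reads than the median NFATC2/JUN region in both libraries, and more in TGF than in siHK1, as the totals had.

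Regulators of both factors were among the genes. An intronic region of Nfatc2 itself at chr2:168547908-168548350 had 13 NFATC2 reads in TGF and 9 in siHK1, with 454 and 155 JUN reads. Near Fos, which encodes a partner of JUN, chr12:85485899-85486248 had 14 and 3, a log2 ratio of -1.35 (-3.96 to 0.32). An intron of Dyrk1a, whose kinase rephosphorylates NFAT, had 40 and 14 in a multi-copy region. The 7 regions of AP-1 genes summed to 36 TGF reads and 27 siHK1 reads (log2 ratio 0.28, interval -0.49 to 1.04), and the 15 of NFAT and calcineurin genes to 121 and 50 (-0.58, -1.08 to -0.09). The latter was the lowest ratio of any list with reads, and the lists were not tested against each other.

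Adhesion, contractile and matrix genes had single-copy regions of similar read numbers and multi-copy regions with more. At Ptk2, encoding focal adhesion kinase, an intergenic region had 13 and 13 reads, and at Itga11, a collagen-binding integrin subunit, 13 and 9. At Actn1, encoding alpha-actinin 1, an intronic region had 18 and 12, and at Myh9, encoding a nonmuscle myosin heavy chain, 13 and 11. At Adam12, a metalloprotease, an intronic region had 19 and 12, and at Timp2, a metalloprotease inhibitor, an intergenic region had 16 and 6. At Fbln5, encoding an elastic fibre protein, a multi-copy region had 73 and 42. At Fbln2, of the same family, and P4ha2, a collagen prolyl hydroxylase, multi-copy regions called in all 8 libraries had 50 and 31, and 376 and 301. Matricellular genes summed to 159 reads in TGF and 133 in siHK1 over 25 single-copy regions (log2 ratio 0.44, 0.10 to 0.78). The ratio was 0.31 (-0.06 to 0.67) for contractile genes and 0.17 (-0.24 to 0.57) for fibrillar collagens with their cross-linking enzymes. It was 0.05 (-0.43 to 0.52) for proteases with their inhibitors, 0.01 (-0.37 to 0.39) for integrins and adhesion genes and 0.10 (0.07 to 0.12) over all genes.

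Signalling and transcription factor genes differed in level and in direction. At Tead3, an intronic region had 24 and 26 reads, and at Vgll4, a cofactor that competes with YAP for TEAD factors, 5 and 10 (log2 ratio 1.63, 0.02 to 3.60). At Scx, encoding the tendon factor scleraxis, an intronic region had 23 and 10, and at Runx1 a multi-copy intronic region had 20 and 26 (log2 ratio 1.07, 0.18 to 2.0). At Bambi, a decoy receptor of the TGF-β family, a single-copy region 130948 bp from the start site had 100 and 53, and at Smurf2, a ubiquitin ligase of the pathway, a multi-copy region had 90 and 40. Multi-copy regions gave the values of Maf (26 and 15) and Il1b (18 and 10), the latter called in all 8 libraries.

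Markers of other cell types also had regions. Ctla4 was the T cell gene with NFATC2/JUN regions, and the one with most reads had 4 and 3. The Ryr2 region, the cardiomyocyte case, was multi-copy and had 23 and 7. Of endothelial genes, Cdh5 had a single-copy region with 15 and 2 (log2 ratio -1.93, -5.38 to -0.10), and the Flt1 region, with 359 and 200, was multi-copy and called in all 8 libraries.

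Some genes had several regions. Over all copies, genes with many regions included Mir101c with 18, Pisd-ps2 with 14, Atg7 with 12, Vmn1r2 with 11 and Camta1 with 10. At Mir101c, Pisd-ps2, Atg7 and Vmn1r2 together 5 of these were single-copy. Over all genes, 11.8% of single-copy distal NFATC2 regions were NFATC2/JUN regions. Col4a1, encoding a basement membrane collagen, had 8 single-copy NFATC2/JUN regions with 2 to 14 and 2 to 10 reads, among 14 distal NFATC2 regions of any copy number. Xylt1 had 8 among 28, Tead1 7 among 17, Tle3 7 among 15, Trib1 7 among 13 and Camta1 7 among 52. The Tead1 regions, all intronic, held 39 reads in TGF and 15 in siHK1 (log2 ratio -0.68, -1.64 to 0.21), and 3 of the 7 had an AP-1 match.

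At the limit of the rule, 102 NFATC2/JUN regions shared 10 bp or fewer with their JUN region. The smallest overlap was 1 bp, at a region near Bvht with 8 NFATC2 reads in TGF and 3 in siHK1. Just outside, 41 other distal regions lay less than 10 bp from a called JUN region, and the nearest, in an intron of Farp1 at chr14:121124376-121124682, was directly adjacent, with 2 and 5 reads. Of the 50384 other distal regions, 2523 lay within 1 kb of a called JUN region, and their median distance to one was 19.9 kb.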

How the data were processed

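Per the study's methods, the authors aligned reads with Bowtie2, called peaks with MACS2 and named GRCm39, whereas the submitters' processing notes name mm10 and BWA 0.7.12. Transcript coordinates in the tables matched GENCODE vM21 on GRCm38 for 48301 of 48301 transcripts, so GRCm38 was used, counted from 1. The deposited tables hold raw read counts and 0 or 1 peak marks (another kind of value) made by the authors per region and library. Their normalized values, group means, log2 ratios, standard errors, p-values, adjusted p-values and change calls were not used, nor were the 2 libraries titled NC (control) and TGF. Totals over listed regions were 575706 (TGF) and 354599 (siHK1) reads with the NFATC2 antibody. They were 4215447 and 2271336 with c-JUN, 563562 and 399897 with SMAD3, and 2490853 and 1419023 with H3K9lc. Library depth is not known.

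Overlaps needed 1 bp. Counts of each table were scaled to equal totals. Summed ratios carry exact conditional intervals and shares exact Clopper-Pearson intervals, both at 95%. A region was counted as 2-fold changed with at least 10 scaled reads over both libraries and a pseudocount of 0.5. Motifs were read on both strands from the GRCm38 assembly (NCBI). Functions were tested on simulated data. Python 3.11.15, pandas 2.3.3, numpy 2.4.6 and scipy 1.17.1 were used. Named regions were, on chromosomes 1 to 19 and X, the 6 with most reads, the 5 largest falls and 5 largest rises with ties, the 6 genes with most regions (1 of which is not reported here), 2 genes of each of 15 lists, up to 6 with the composite motif and those at the limit of the overlap rule. The single-copy division, the regions called in all 8 libraries, the sequences with 1 motif, the single-copy regions with most reads, Col4a1, Xylt1, Tead1, Tle3 and Trib1 were chosen after seeing values. The members and lists were chosen with earlier results of these data known. Alternatives covered the overlap, the JUN peak, distance, width, chromosomes, scaling, pseudocount, read minimum and motif window.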

Additional observations from a re-analysis of the deposited data

How the results depend on the processing

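With 1 library per condition no replicate could be left out, and no statement reaches beyond these libraries. No paired analysis was possible because the antibodies had a single library in either condition. Read numbers of a few in most regions limit the ratios of single regions. The number of NFATC2/JUN regions was within 1.5 times of 6720 under every alternative run (4731 to 7266). Some log2 ratios changed sign, and the cause was not tested. The NFATC2 log2 ratio at NFATC2/JUN regions (-0.06) was 0.10 in single-copy regions, 0.0194 with libraries scaled over regions called in both, 0.058 as a median of single regions, -0.0241 without regions called in all 8 libraries, -0.14 with totals that leave those out, and -0.76 with no scaling. In other distal regions (0.10) it was -0.0501 for regions of at least 200 bp, -0.60 with no scaling and 0.70 as a median of single regions. The JUN log2 ratio at NFATC2/JUN regions (0.07) was 0.011 scaled over regions called in both, -0.82 with no scaling, -0.0648 as a median and -0.00267 with single-copy regions.

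NFATC2/JUN regions at least 2-fold lower (355) numbered 1501 with no scaling, 958 with at least 5 scaled reads, 117 with at least 20 and 183 in single-copy regions. Those at least 2-fold higher (507) numbered 163 with no scaling, 1261 with at least 5 scaled reads and 72 with at least 20. The share called in both libraries (15.8%) was 16.8% with at least 50% of the region covered, 17.3% from 200 bp in width, 7.59% in single-copy regions and 11.5% without regions called in all 8 libraries. The AP-1 share (16.5%) was 18.5% with that coverage, 19% and 20.2% with JUN called in siHK1 or in both libraries, 20.7% in single-copy regions, 26.2% over whole regions and 8.71% over the central 100 bp. The GGAAA share (38.9%) was 42.4% and 43.5% with JUN called in siHK1 or in both, 47.6% in single-copy regions, 51.4% over whole regions and 22.4% over the central 100 bp. The SMAD3 share (42.6%) was 44.9% with that coverage, 44.5% from 200 bp, 32.4% in single-copy regions, 39.6% without regions called in all 8 libraries, 24.9% for SMAD3 called in TGF and 35.0% by midpoint. The H3K9lc share (21.1%) was 19.4% and 19% with JUN called in siHK1 or in both, 23.2% beyond 10 kb, 22.2% from 200 bp, 7.63% in single-copy regions, 17.0% without regions called in all 8 libraries, 18.2% for H3K9lc called in TGF and 18.3% by midpoint. Single-copy regions, regions called in all 8 libraries and totals without them were alternatives chosen after seeing the data. Over 19 results and 174 alternative values, 88 stayed within their limits, 78 moved and 8 changed sign.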
